A study of Mus musculus with 2 samples.

Results

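The regions described here are 3131 weakly supported accessible regions at promoters of protein-coding genes in mouse regulatory T cells. They were found by ATAC-seq (assay for transposase-accessible chromatin with sequencing), in which the transposase Tn5 inserts adapters into open chromatin. Overlapping or touching rows of the authors' pseudoreplicated peak list, 86938 rows in all, were merged into 52972 regions, and the row with the highest fold enrichment gave each region its summit. A region counted as a weak promoter when its summit lay no more than 1000 bp away from the start of a protein-coding transcript (GENCODE M21, mouse build GRCm38, also called mm10) and when it shared no base with the authors' list that keeps peaks under a limit on the irreproducible discovery rate (IDR). The IDR estimates, for a peak ranked in 2 sets, how likely it is that the peak fails to recur. The members were therefore chosen by measured values, namely presence in the pseudoreplicated list, fold at the summit and absence from the IDR list. Those values and the limit of 1000 bp are given below as description only. Of the 13923 regions with a promoter summit, 22.5% were weak promoters (exact Clopper-Pearson 95% interval 21.8 to 23.2%) and the other 10792 were in the IDR list.

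The cells were labelled as inflammation-experienced regulatory T cells, primary cells of 1 adult male mouse aged 6 months from the strain Foxp3CreERT2 x Rosa26YFP, and the source label traces them to a bone marrow hematopoietic cell. In such mice a tamoxifen-inducible Cre recombinase is made from the Foxp3 locus, and recombination at Rosa26 switches on a yellow fluorescent protein. The sources used here give neither the kind of inflammation, nor the time after it, nor the sort that yielded the cells. The 2 libraries are technical replicates 1 and 2 of biological replicate 1, there is 1 group, and the peak lists tie no value to a named library. No difference between conditions, mice or libraries could therefore be tested, and the depth behind each region is unknown. Intervals on shares cover counting error only and treat regions as independent, which several regions of 1 gene are not.

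A promoter is the stretch of DNA around a transcription start where RNA polymerase and general factors assemble, usually free of a nucleosome when the gene is active. Many mammalian promoters lie in CpG islands, stretches rich in unmethylated CpG that are bound by SP and KLF factors at GC boxes, by NF-Y at CCAAT boxes and by ETS factors. CpG-poor promoters more often serve genes used in few cell types. Regulatory T cells depend on the transcription factor FOXP3 and restrain other immune cells, and in inflamed tissue a share of them takes up regulators and receptors of effector T cells, such as T-bet and CXCR3. The cells' labels were checked against defining markers. Of 8 T cell markers 7 had a region of the IDR list at a start, and the eighth, Cd4, had a weak region only. Of 6 regulatory T cell markers 5 were in the IDR list, Foxp3, Il2ra, Ctla4, Ikzf2 and Ikzf4, and Tnfrsf18 had neither kind of region. No region of either kind lay at 4 myeloid markers (Lyz2, Csf1r, Itgam, Cd68) or at 3 natural killer cell markers (Ncr1, Klrd1, Klrb1c). Of 4 B cell markers only Pax5 was in the IDR list and the others had neither kind. Of the erythroid markers Klf1 was in the IDR list and Hba-a1 had neither kind.

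The sequences below are shown because they are the summits of weak promoters on which the results turn, in 3 sets. Each is the reference sequence (RefSeq copy of GRCm38) from 50 bp before to 50 bp after the summit, 5′ to 3′ on the strand of the gene, and none overlaps an annotated exon. Capitals mark matches, on either strand, to a consensus searched for in all regions; a match is a description of letters and not a measured binding site. The first set holds weak promoters of high fold whose gene had no region in the IDR list. They lie at chr6:29279140-29279240 on the plus strand (Fam71f2, a CTCF match), chr17:33810388-33810488 on the plus strand (Kank3, a GC box and a CCAAT box), chr11:69948227-69948327 on the minus strand (Slc2a4, a CCAAT box) and chrX:164028030-164028130 on the minus strand (Car5b, 2 GC boxes and a CCAAT box).
Fam71f2: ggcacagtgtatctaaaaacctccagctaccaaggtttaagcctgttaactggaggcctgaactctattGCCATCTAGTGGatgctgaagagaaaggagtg
Kank3: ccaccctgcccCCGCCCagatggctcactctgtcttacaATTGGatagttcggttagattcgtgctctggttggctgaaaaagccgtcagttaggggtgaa
Slc2a4: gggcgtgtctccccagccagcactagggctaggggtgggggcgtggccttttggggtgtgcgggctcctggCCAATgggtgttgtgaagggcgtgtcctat
Car5b: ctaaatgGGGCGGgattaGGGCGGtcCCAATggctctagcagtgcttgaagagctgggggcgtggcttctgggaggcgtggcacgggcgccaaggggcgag

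The second set holds genes of effector T cells and inflammation that had a weak region and none in the IDR list. They lie at chr14:56262282-56262382 on the minus strand (Gzmb, a RUNX and a STAT match), chr17:8242359-8242459 on the plus strand (Ccr6, an NF-kB match), chr17:35202012-35202112 on the minus strand (Tnf, a GC box and a TATA box) and chr5:120907522-120907622 on the minus strand (Oas1a, a CCAAT box and a match to the interferon-stimulated response element, ISRE).
Gzmb: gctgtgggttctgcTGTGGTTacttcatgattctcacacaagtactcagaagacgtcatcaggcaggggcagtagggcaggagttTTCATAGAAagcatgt
Ccr6: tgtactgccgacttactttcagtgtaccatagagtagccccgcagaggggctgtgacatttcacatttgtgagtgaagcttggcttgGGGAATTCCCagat
Tnf: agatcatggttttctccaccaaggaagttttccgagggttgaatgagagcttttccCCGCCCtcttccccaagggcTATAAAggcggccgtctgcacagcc
Oas1a: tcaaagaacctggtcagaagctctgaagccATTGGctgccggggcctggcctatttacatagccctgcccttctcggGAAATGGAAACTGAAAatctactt

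The third set holds regulators of other lineages with a weak region only. They lie at chr11:44617173-44617273 on the plus strand (Ebf1, a CCAAT box), chrX:7964225-7964325 on the minus strand (Gata1, a GATA match) and chr1:78197158-78197258 on the minus strand (Pax3, 2 CCAAT boxes and an ISRE match).
Ebf1: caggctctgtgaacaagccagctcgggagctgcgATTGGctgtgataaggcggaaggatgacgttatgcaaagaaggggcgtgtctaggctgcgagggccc
Gata1: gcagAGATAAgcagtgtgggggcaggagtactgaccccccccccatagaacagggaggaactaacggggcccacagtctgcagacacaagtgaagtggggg
Pax3: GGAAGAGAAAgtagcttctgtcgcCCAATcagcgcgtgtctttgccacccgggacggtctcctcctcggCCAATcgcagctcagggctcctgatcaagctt

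Weak promoters were lower and narrower than promoter regions of the IDR list, from which the rule itself parts them. The fold at the summit is the authors' own value for the peak, a ratio over a background that is not given in the sources used here. Its median was 4.33 in weak promoters, with a lowest value of 1.54 at Ints6 and a highest of 16.2 at Fam71f2, against a median of 15.4 in promoter regions of the IDR list. The median width was 340 bp in weak promoters and 909 bp in promoter regions of the IDR list, and 31.2% of weak promoters had more than 1 summit, against 79.5%. The median −log10 p of the peak was 14.7 in weak promoters and 177 in promoter regions of the IDR list. The other regions outside the IDR list had a median fold of 5.31, a median width of 295 bp, a median −log10 p of 14.7 and more than 1 summit in 15.9%. Next to these, weak promoters were lower in fold, wider and more often of several summits. In bulk material such as this, accessibility in few cells and low accessibility in all cells cannot be told apart.

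The name weak describes support rather than fold in every case. Of the 3131 weak promoters 121 (3.86%) had a fold over 10, as did 79.4% of promoter regions in the IDR list. The authors' ranked list gives the −log10 p of each peak in the 2 sets that were ranked against each other; whether these sets are the 2 libraries is not given in the sources used here. The IDR rests on how the 2 sets rank a peak. Agreement of the sets therefore entered the rule, and the set values are given as description only. A region of high fold left out of the IDR list is likely, by this selection, to have sets that differ. Of the 121 weak promoters with a fold over 10, 79 (65.3%) had set values more than 2-fold apart, against 23.3% of those with a fold of 10 or less. Fam71f2 had 46.1 and 17.9, Macrod1 50.6 and 20.9, and F2rl3 13.4 and 53.4. All 10 weak promoters of highest fold whose gene had no region in the IDR list had sets more than 2-fold apart, as did 7 of the 10 others of highest fold. Over all weak promoters the 2 sets lay within 2-fold in 75.1%, with Spearman's rho 0.45 (3131 regions), against 99.2% and rho 0.96 in promoter regions of the IDR list (10792 regions). The share within 2-fold was 74.3% in the other regions outside the IDR list, close to that of weak promoters.

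The score of the ranked list falls as the IDR rises, and 540 corresponds to an IDR of 0.05. Weak promoters scored between 185 and 539, and 1705 of them (54.5%) were at 185, the lowest score in use; the share was 54.2% in the 20477 other regions outside the IDR list. The members just inside the limit were Sipa1l1 at 539 and Bcl6b, Atp9a, Hexim1 and Eif5 at 538. The promoter regions just outside it, in the IDR list, were Lpin2 and H2-Oa at 540, Tmem50b and Ikzf1 at 541 and Syt3 at 542, and Ikzf1 encodes the lymphoid regulator Ikaros. By position the members farthest from a start were Gmeb1 and Clip2 at 1000 bp, and the nearest regions beyond the limit lay 1001 bp from starts of Zfp362, C2 and Rtf1. Folds were low on both sides of that limit, with 6.77 at Gmeb1, 2.73 at Clip2, 3.14 at Zfp362, 3.78 at C2 and 4.23 at Rtf1.

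Weak promoters fell into 3 kinds by what else lay at their gene. In 1390 (44.4%) the nearest gene had no region of the IDR list at any of its starts, and these are called alone. In 1288 (41.1%) a region of the IDR list overlapped the 1000 bp to either side of the same start, and these are called beside. A gene's region of the IDR list was placed at a start by that overlap, wherever its summit lay. In the other 453 (14.5%) the gene had a region of the IDR list at another start only. The median fold was 5.56 in alone regions, 3.42 in beside regions and 4.75 in regions with an IDR-list region at another start. Of the 121 weak promoters with a fold over 10, 97 were alone, 1 was beside and 23 had an IDR-list region at another start.

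**Figure D1:**
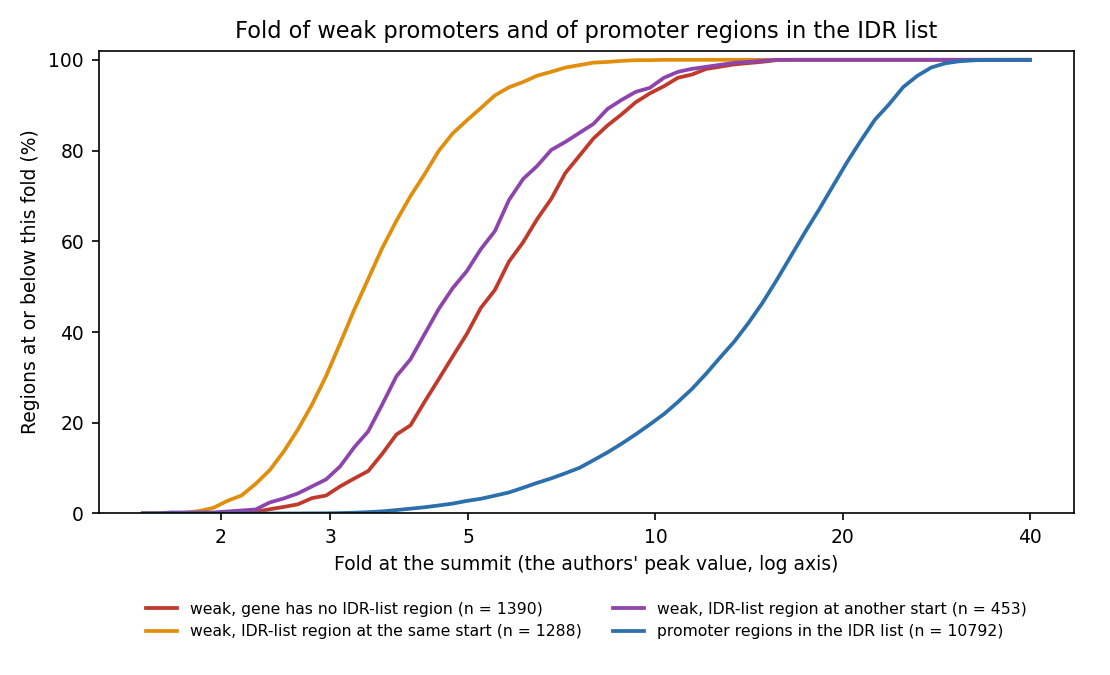
Cumulative share of regions (%, vertical axis) at or below each fold at the summit (horizontal axis, log scale) for the 3 kinds of weak promoter and for promoter regions in the IDR list, 1 line each. The line of beside regions lies farthest to the left (median 3.42), those of regions with an IDR-list region at another start (4.75) and of alone regions (5.56) follow, and that of promoter regions in the IDR list lies to the right (15.4).

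Counted by gene, the 3131 weak promoters were nearest to 2641 genes. Of these genes 2230 had 1 weak promoter, 411 had 2 or more and 61 had 3 or more. Bcor, a Polycomb-associated corepressor, Plec, which encodes the cytolinker plectin, Rai1 and Ubtf, an RNA polymerase I factor, had 5 each, and Akt1, a kinase of growth factor signalling, had 4. Rai1 differed from the other 4 genes in that all 5 of its weak promoters were alone, with folds between 3.60 and 6.46. The 5 at Bcor had folds between 3.16 and 4.58, and 3 of them were beside a region of the IDR list.

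The summits of weak promoters lay farther from starts than those of the IDR list. Within 100 bp of a start lay 29.6% of weak promoter summits (95% interval 28.0 to 31.3%), against 66.2% in the IDR list (65.3 to 67.1%), and the intervals do not overlap. Without merging rows the shares were 26.4% in weak promoters and 35.0% in the IDR list. The kinds differed among themselves, with 43.4% in alone, 13.7% in beside and 32.7% in regions with an IDR-list region at another start. More than 300 bp downstream of the start, into the gene, lay 34.1% of weak promoter summits, against 7.94% in the IDR list, and this share was 51.9% in beside regions and 20.2% in alone regions. Upstream of the start lay 47.7% of weak promoter summits and 71.5% of those in the IDR list. Introns held 27.6% of weak promoter summits and 6.96% of those in the IDR list, while exons held 32.9% and 35.7%.

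**Figure D2:**
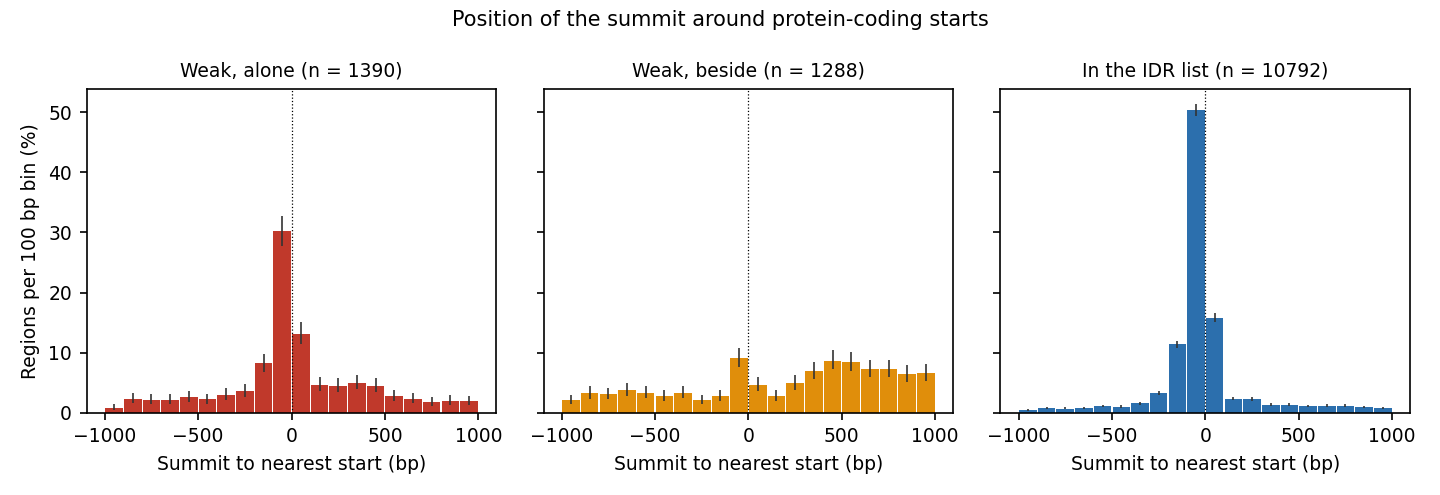
Share of regions (%, vertical axis) whose summit fell in each 100 bp bin around the nearest protein-coding start (horizontal axis in bp, negative upstream), for weak promoters that were alone, weak promoters that were beside an IDR-list region, and promoter regions in the IDR list, with exact 95% intervals as error bars. The bin from -100 to -1 bp holds 30.2% of alone regions and 50.3% of IDR-list promoter regions, whereas it holds 9.08% of beside regions, most of which lie downstream.

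The starts themselves differed in the annotation. The nearest start belonged to a principal transcript, the annotation's choice of main isoform, in 60.0% of weak promoters and 72.1% of promoter regions in the IDR list. It lay within 100 bp of the gene record's 5′ end in 57.3% of weak promoters and 73.9% of promoter regions in the IDR list. Weak promoters with an IDR-list region at another start had the lowest shares, 33.8% at a principal transcript and 21.9% at the gene record's 5′ end, so most of them lay at starts inside the gene. A start of another gene on the opposite strand lay within 1000 bp in 4.95% of weak promoters, against 11.0% in the IDR list, and in 1.73% of alone regions. Summits in annotated repeats made up 7.35% of weak promoters, 3.98% of promoter regions in the IDR list and 12.6% of the other regions outside the list. By chromosome the weak share of promoter regions ran between 18.9% on chromosome 16 and 26.6% on chromosome 11, apart from chromosome Y with 1 weak promoter of 5.

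Sequence around the start was not used to choose the members. A start was called CpG rich when the 1000 bp around it had a CpG ratio, observed over expected, of at least 0.6 and a GC content of at least 50%. Of weak promoters 56.6% were at CpG rich starts (54.9 to 58.4%), against 73.5% of promoter regions in the IDR list (72.7 to 74.3%), 42.7% of all protein-coding starts and 14.7% of the 5′ ends of genes with no region of either kind. With a ratio of at least 0.75 and a GC content of at least 55%, the shares were 33.8% in weak promoters and 43.8% in promoter regions of the IDR list. The share under the first definition was 71.4% in beside regions, 51.9% in alone regions and 28.9% in regions with an IDR-list region at another start. The beside regions, which share their start with a region of the IDR list, came nearest to its share. With the 1000 bp centred on the summit, the share of weak promoters was 43.4%, and in the other regions outside the list, measured that way, it was 1.64%.

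Among promoter regions ordered by CpG ratio, the weak share was highest where CpG was poorest. It was 41.1% (38.5 to 43.7%) in the lowest decile of CpG ratio, 33.9% in the second and 23.7% in the third, and lay between 15.3 and 20.9% in the other 7 deciles. Within weak promoters, fold and CpG ratio had a Spearman's rho of -0.25 over 3131 regions, against -0.03 over 10790 promoter regions in the IDR list; the points share libraries and peak calling, and the value is a description. Of the 121 weak promoters with a fold over 10, 32.2% were CpG rich. Among alone regions, the 722 that were CpG rich had a median fold of 5.31 and a median width of 439 bp, and the 668 that were not had a median fold of 5.81 and a median width of 332 bp. The shares within 100 bp of a start had overlapping intervals in these alone regions, 44.3% (40.7 to 48.0%) where CpG rich and 42.4% (38.6 to 46.2%) where not.

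**Figure D3:**
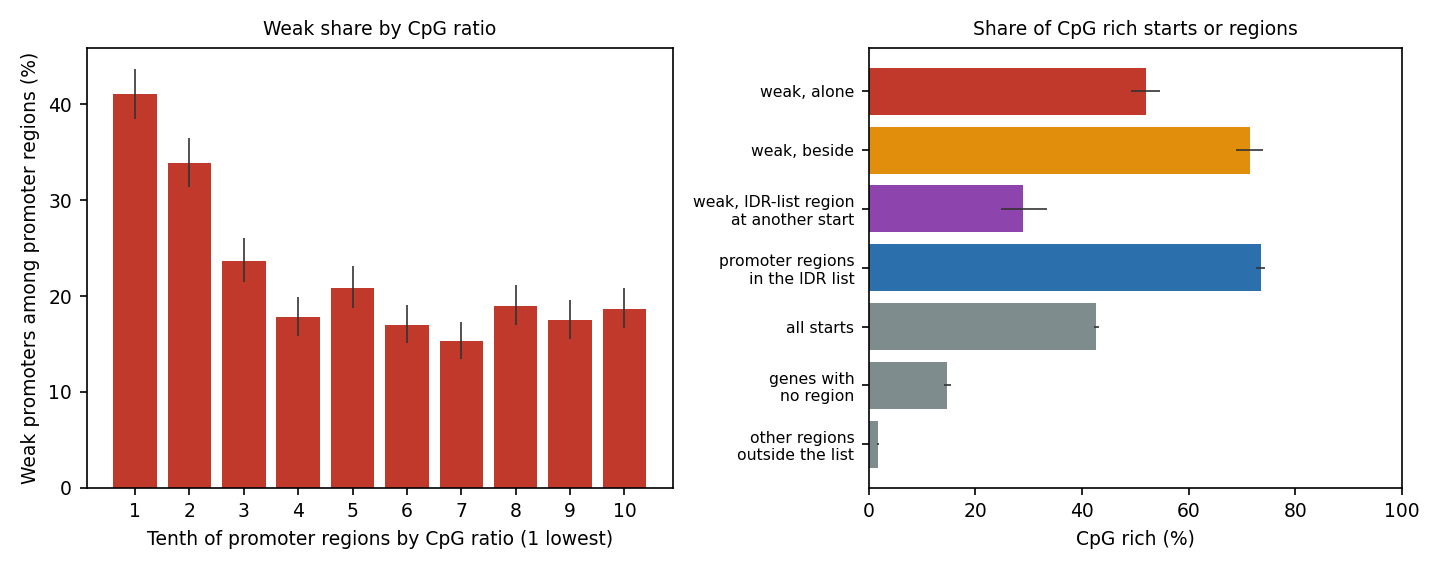
Left, weak promoters as a share of promoter regions (%, vertical axis) in each decile of the CpG ratio at the start (horizontal axis, 1 lowest); right, share of CpG rich starts (%, horizontal axis) in the 3 kinds of weak promoter and in comparison sets, the other regions outside the list being measured around the summit; error bars are exact 95% intervals. The weak share falls over the first 3 deciles, 41.1, 33.9 and 23.7%, and stays between 15.3 and 20.9% in the rest.

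The summits were searched on both strands for 21 consensus motifs within 50 bp to either side. CTCF and ISRE were searched as degenerate consensus sequences. Letter matches occur by base composition alone, so each share is given beside those of other regions. The GC box GGGCGG was found in 25.4% of weak promoters (23.8 to 26.9%), 42.7% of promoter regions in the IDR list, 24.1% of all starts and 4.68% of the other regions outside the list. In windows 500 bp away from weak promoter summits it was found in 13.6%. The CCAAT box was found in 9.45% of weak promoters (8.45 to 10.5%), against 26.3% of promoter regions in the IDR list (25.5 to 27.2%), and 10.8% in the windows 500 bp away. The share of weak promoters with CCAAT was thus near that of their own flanks, while their GC box share was higher than that of the flanks. These flanks are not a neutral background. Beside regions lay a median of 150 bp from a region of the IDR list, so a window 500 bp away can fall in it. By kind CCAAT was found in 11.8% of alone regions, 7.38% of beside regions and 8.17% of regions with an IDR-list region at another start. The ETS consensus CCGGAAG was found in 2.94% of weak promoters and 12.8% of promoter regions in the IDR list, with 1.44% in the flanks of weak promoters and 5.66% at all starts. In windows around the nearest start the gaps were smaller for the first 2 motifs, with a GC box in 36.1% of weak promoters and 44.1% of promoter regions in the IDR list, and CCAAT in 9.04% and 16.2%.

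The same comparison was made at like starts. Among CpG rich regions with a summit within 100 bp of a start, 470 were weak promoters and 5364 were in the IDR list. There the GC box shares had overlapping intervals, 55.3% in weak promoters with a lower bound of 50.7% and 51.4% in the IDR list with an upper bound of 52.7%. The CCAAT box was found in 8.94% of the weak promoters (6.52 to 11.9%), against 28.1% in the IDR list, and the ETS consensus in 3.40% (1.96 to 5.47%), against 17.4%. In the 631 regions of that IDR-list set whose fold was 10 or less, both shares were nearer to those of the weak promoters. The ETS share was 9.35% (7.19 to 11.9%), with an interval above theirs. The CCAAT share was 14.6% (11.92 to 17.6%), and its lower bound barely cleared the weak promoters' upper bound of 11.89%. In the 320 of the weak promoters that were alone, CCAAT was found in 10.6% (7.47 to 14.5%), an interval that overlaps that of the 631 regions. The NRF1 consensus GCATGCGC was found in 2.55% of the 470 weak promoters (1.33 to 4.42%) and 3.50% of the 5364 IDR-list regions (3.03 to 4.03%), and the intervals overlap.

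Some motifs were more frequent in weak promoters than in promoter regions of the IDR list. The AP-1 consensus TGANTCA was found in 4.15% of weak promoters and 2.21% of promoter regions in the IDR list, and the GATA consensus AGATAA in 2.87% and 1.13%. The E protein E-box CACCTG, an E2A-type site, was found in 8.88% of weak promoters and 5.56% of promoter regions in the IDR list. For these 3 the share in the other regions outside the list was higher still, at 7.78, 5.24 and 9.98%. In the windows 500 bp away from weak promoter summits AP-1 was found in 1.93%, GATA in 3.72%, above its share at the summits, and the E-box in 7.98%. At CpG rich starts within 100 bp of the summit, the intervals of weak promoters and the IDR list overlapped for each, with AP-1 in 1.49 and 1.31%, GATA in 0.426 and 0.690% and the E-box in 5.74 and 4.19%. The RUNX consensus TGTGGTT was found in 2.33% of weak promoters (1.83 to 2.92%) and 1.90% of promoter regions in the IDR list (1.65 to 2.18%), intervals that overlap, against 6.79% of the other regions outside the list.

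CTCF, the factor of chromatin loop anchors, was found more often at higher fold. Its consensus was found in 1.76% of weak promoters (1.33 to 2.28%), 0.834% of promoter regions in the IDR list (0.671 to 1.02%) and 7.75% of the other regions outside the list. Among alone regions it was found in 5.46% of the 348 with the highest fold (3.32 to 8.40%) and in 0 of the 348 with the lowest, which by the exact interval allows a share of up to 1.05%. It was found in 3.89% of alone regions at starts that were not CpG rich (2.56 to 5.65%) and in 0.970% of those at CpG rich starts (0.391 to 1.99%). Fam71f2, printed above, is such a region, with its summit at -403 bp from the start. Scn1a, Cln6 and Rab13 also held a CTCF match at the summit, with folds of 7.30, 11.6 and 11.1.

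**Figure D4:**
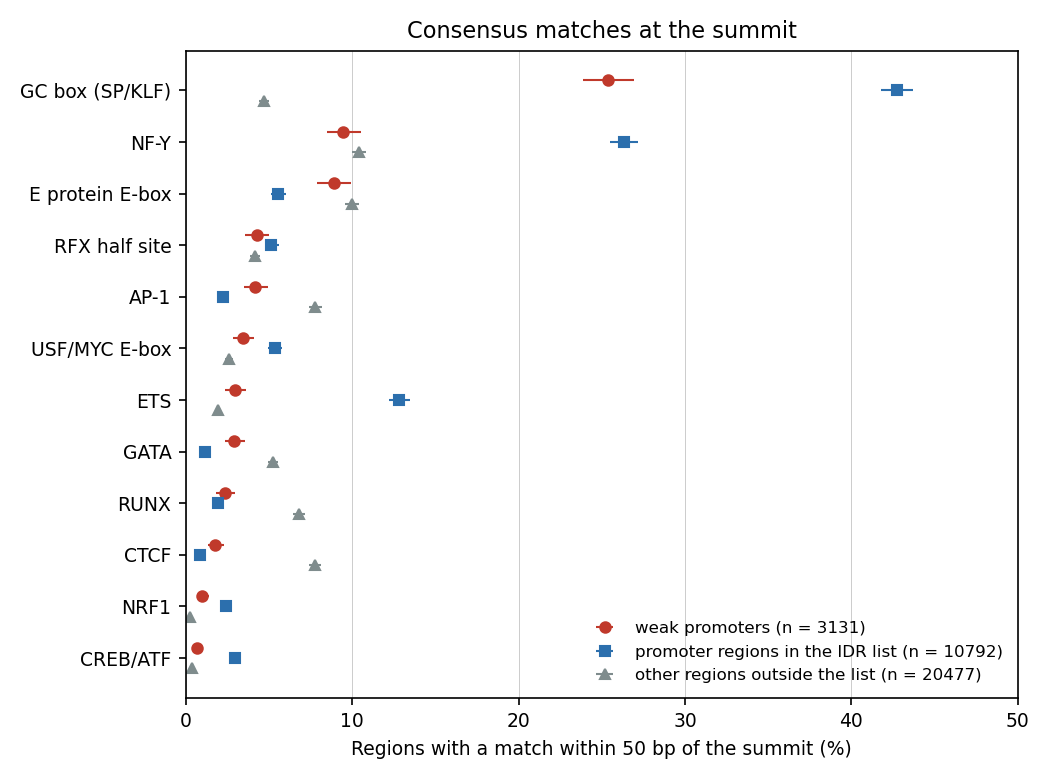
Share of regions (%, horizontal axis) with a consensus match within 50 bp of the summit for 12 of the 21 motifs (vertical axis), in weak promoters, promoter regions in the IDR list and the other regions outside the list; error bars are exact 95% intervals. Weak promoters lie far below the IDR-list promoter regions for the GC box (25.4 and 42.7%), NF-Y (9.45 and 26.3%) and ETS (2.94 and 12.8%).

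Of all weak promoters Fam71f2, an alone region, had the highest fold (16.2, chr6:29278919-29279328). Among alone regions the next were Kank3 at 15.4, Macrod1, an ADP-ribosylhydrolase, at 15.3, and F2rl3, a thrombin receptor of platelets, at 15.3. Slc2a4, the insulin-responsive glucose transporter of muscle and fat, had 15.3, and Car5b, a mitochondrial carbonic anhydrase, had 15.2. The summits of Kank3, Macrod1, F2rl3, Slc2a4, Car5b and Filip1 (14.7) all lay between -101 and -36 bp of the start, where a promoter's own accessible site is usually found. Olfr15, an odorant receptor, had 14.7 with the summit in an exon at 739 bp, 4930402F06Rik had 14.4 at -531 bp and Tmem8 had 14.2 at 386 bp. Macrod1 and Tmem8 were at CpG rich starts and the other 8 of these 10 were not.

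Where the gene had an IDR-list region elsewhere, the highest folds were at alternative starts. Tex2 had 15.4 at -962 bp, level with Kank3, and Tnk2, a tyrosine kinase, had 14.6 at 58 bp. Hcfc1, which encodes the transcriptional coregulator host cell factor, had 14.0 in an intron at 469 bp, and Tep1, a telomerase-associated protein, had 13.1 in an intron at 516 bp. Lmna, which encodes the nuclear lamins A and C, had 12.9 at 13 bp. Fbxw4 and Fbxo17 had 12.1, Kntc1 11.9, Cln6 11.6 and Rab13 11.1. None of these 10 was beside a region of the IDR list at the same start, and none was at a CpG rich start. The lowest 5 folds, 1.54 at Ints6, 1.59 at Nfia, 1.72 at Zzz3, 1.76 at Tnfrsf1b and 1.77 at Il3ra, belonged to 4 beside regions and to Nfia, whose IDR-list region lay at another start.

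Beside regions were close neighbours of stronger peaks, which their definition partly fixes. A region of the IDR list had to reach within 1000 bp of the same start, and it had passed the limit that the weak region had not. The values are given as description only. The median gap to the nearest region of the IDR list was 150 bp, between 46 and 1839 bp, and 72.0% lay within 300 bp. The nearest region had the higher fold in 98.8% of the 1288 cases, its median fold was 12.5, and the median ratio of its fold to that of the weak promoter was 3.51. In the direction of transcription 67.7% of beside regions lay downstream of that neighbour, and in 64.7% the neighbour's summit was the nearer to the start.

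Genes of T cells gave several such pairs. Zap70, the kinase that relays T cell receptor signals, had a weak promoter of fold 2.82 located 76 bp from an IDR-list region of fold 10.9. Gata3, a regulator of type 2 and tissue regulatory T cells, had 2.03 beside 4.60, at 107 bp. Ifng, the interferon gamma gene, had 5.42 beside 10.3, at 862 bp, and Il2, the growth factor of T cells, had 3.55 beside 10.5, at 76 bp. The pore-forming protein gene Prf1 had 7.83 beside 13.4, at 77 bp, and the interferon-induced protease gene Usp18 had 2.39 beside 13.4, at 71 bp. Satb1, a chromatin organiser of T cells, had 2 weak regions, of fold 2.52 and 1.97, on the flanks of 1 region of fold 8.57. In each of these pairs the weak region was the lower, and the ratio was smallest at Ikzf4, with 5.34 beside 6.05, and at Cd27, with 4.53 beside 5.60.

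Regions of the IDR list far from starts were about as common around weak promoters as around promoter regions in the IDR list. A distal region of the IDR list, one with its summit more than 1000 bp from any protein-coding start, lay within 50 kb in 71.4% of weak promoters (69.7 to 72.9%) and 71.4% of promoter regions in the IDR list (70.5 to 72.2%), against 29.3% of genes with no region of either kind. At least 3 such regions lay within 50 kb of 31.7% of weak promoters and 29.1% of promoter regions in the IDR list, and the median was 1 in weak promoters. By kind the share with at least 1 was 62.2% in alone regions (59.5 to 64.7%), 78.6% in beside regions and 79.0% in regions with an IDR-list region at another start. Among alone regions it was 57.2% (53.5 to 60.8%) at CpG rich starts and 67.5% (63.8 to 71.1%) at the others. The weak promoters with most distal regions were at Tnfrsf1b, the second receptor of tumour necrosis factor, with 17, Prkch, a protein kinase C, with 14, and the ETS factor genes Elk3 and Ets1 and the antiproliferative gene Btg1 with 13 each. A region of the IDR list of any kind lay within 2 kb of 47.4% of all weak promoters and of 5.83% of alone regions. The low share of alone regions is partly built in, since none of their gene's starts had such a region within 1000 bp.

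By gene, 1173 of 21829 protein-coding genes (5.37%) had a weak promoter at a start and no region of the IDR list at any, and are called weak-only below. A further 49.7% had a region of the IDR list at a start, and 44.9% had neither. The median of the weak-only genes' highest folds was 5.94. Gene lists were read against the share of 5.37% over all genes, and no list was tested, because the members were selected on the same peaks. The lists held 37 different weak-only genes, of which 25 had their summit within 150 bp of a start, 25 had at least 1 distal IDR-list region within 50 kb and 9 were at CpG rich starts.

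Genes of effector and tissue regulatory T cells had the highest weak-only share of the lists of immune genes. It was 7 of 24, 29.2% (12.6 to 51.1%), while 13 had a region of the IDR list and 4 had neither. That interval overlaps the interval of every other immune list, and Gzmb, Cxcr3 and Ccr6 are also counted in others of these lists. Tbx21, which encodes the transcription factor T-bet of type 1 responses, had a fold of 8.07 at -19 bp. Among the receptors, Cxcr3, which responds to interferon-induced chemokines, had 6.57, the checkpoint receptor gene Lag3 4.72, the interleukin 23 receptor gene Il23r 3.79, and Ccr6, the receptor of CCL20, 3.24. The cytotoxic protease gene Gzmb had 5.31 at -72 bp. Il23r was named after its value was seen. The 2 ranked sets gave Tbx21 a −log10 p of 20.4 and 9.5, Cxcr3 20.82 and 10.04, and Gzmb 8.2 and 10.2.

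Stronger regions lay elsewhere around these genes, which the choice of regions partly fixes. They had passed the limit that the weak regions had not, and the highest within 50 kb is named. Their values are given as description only. The highest IDR-list region within 50 kb had a fold of 18.4 at Gzmb, at -42094 bp from the start, and 16.7 at Tbx21, at -11994 bp. It had 19.5 at Lag3, at 26358 bp, and that same region at chr6:124885127-124885760 was the highest at Cd4, 2874 bp from its start. At Cxcr3 the only IDR-list region within 50 kb had a fold of 8.40, and at Il23r the only one had 7.38. These 2 regions lay at -33229 bp from the start of Cxcr3 and at -40097 bp from that of Il23r, and the nearest to Gzmb lay at -14091 bp. IDR-list regions of any kind were counted here and at Tcf7, Cd4, Thy1 and Tnf below, those at other genes' starts included.

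The core regulatory T cell genes gave no weak-only gene. Of 21 genes 18 had a region of the IDR list, 3 had neither (Tnfrsf18, Itgae, Il10) and 0 were weak-only, which allows up to 16.1% by the exact interval, a range that holds the 5.37% of all genes and overlaps that of the effector list. Of the 18, 7 also had a weak promoter. At Foxp3, the lineage factor itself, it had a fold of 2.94 and lay in an intron, 305 bp past a start that is 12711 bp inside the gene record, at chrX:7586522-7586803. Entpd1, which encodes the ectoenzyme CD39, had 6.21 and Ikzf4 5.34. Tnfrsf9, the costimulatory receptor 4-1BB, had 4.06, Lrrc32, which displays latent TGF-beta, 3.64, Izumo1r, the folate receptor 4, 3.48 and Nrp1, a coreceptor, 3.44. Foxp3 and Entpd1 had their IDR-list region at another start, and in the other 5 genes it was beside.

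Genes of naive and general T cells included 5 weak-only members. Among 17 genes of naive and resting T cells 3 were, among them Ly6c1, a surface antigen with a close paralogue, at 6.38 and Tcf7, which encodes TCF-1, at 3.67. Tcf7 had 9 regions of the IDR list within 50 kb, the highest with a fold of 18.9 at -17247 bp, and the weak promoter lay at -4 bp of a start. Among 20 pan T cell genes 2 were weak-only, Thy1 at 5.59 and Cd4, the coreceptor, at 3.94, and 18 had a region of the IDR list. Cd4 had 9 regions of the IDR list within 50 kb and Thy1 had 7.

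Among cytokines 3 of 18 were weak-only, Il5, the eosinophil growth factor, at 4.80, Tgfb1, a suppressive cytokine, at 3.45, and Tnf at 2.32. The Tnf locus held 15 regions of the IDR list within 50 kb, the nearest with a fold of 11.6 at 1361 bp, while the summit of the weak region lay at -55 bp, in the window with the TATA box printed above. Of 21 chemokine receptor genes 4 were weak-only. Among them Cxcr3 had 6.57, the fractalkine receptor gene Cx3cr1 4.55 and Ccr6 3.24. Among 19 interferon response genes found in the annotation 2 were weak-only, both oligoadenylate synthetase genes, Oas1a at 6.57 and Oas3 at 3.94, and 16 had a region of the IDR list. Oas1a and Ly6c1 belong to families with near-identical copies, and how reads that fit several copies were treated is not given in the sources used here.

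Genes of other blood lineages had weak-only members too. For B cells these were 2 of 14, Ebf1, an early B lineage factor, at 9.10 and Cd79b, a B cell receptor subunit, at 3.54. For myeloid cells they were 2 of 16, Tlr4, the lipopolysaccharide receptor, at 8.34 and its coreceptor gene Cd14 at 7.52. For natural killer and cytotoxic cells they were 3 of 15, Gzmk at 5.81, Eomes, a T-box factor, at 5.41 and Gzmb. For erythroid cells and platelets they were 2 of 12, among them Gata1, the erythroid master regulator, at 9.35. The Gata1 region lay at a start 13905 bp inside the gene record. Its fold equals the highest fold found among weak promoters at the lowest score. Most defining markers of these lineages had no region of either kind, as given above, and the part of other cells in these weak regions was not tested. In the B cell, myeloid, natural killer and erythroid lists 10, 12, 8 and 7 genes had neither kind of region.

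Weak-only members were also counted among developmental genes. Among 39 Hox genes, which pattern the body axis, 9 were weak-only (23.1%, 11.1 to 39.3%), 7 had a region of the IDR list and 23 had neither. The highest were Hoxc10 at 10.5, Hoxc9 at 6.48, Hoxd9 at 5.62 and Hoxb9 at 5.60, and the lowest was Hoxc8 at 2.83. Of the 9, 7 were at CpG rich starts and all had at least 1 distal IDR-list region within 50 kb. Neighbouring members, such as Hoxc9 and Hoxc10 on chromosome 15, can share such a region. The interval of the Hox genes treats such neighbours as independent. Of 32 developmental transcription factors 5 were weak-only (15.6%, 5.28 to 32.8%), among them Foxa1 at 4.96, Lhx9 at 4.87, Pax3 at 4.83 and Pax6, named after its value was seen, at 4.71. Foxa1, Pax3 and Pax6 were at CpG rich starts with no distal IDR-list region within 50 kb. Among secreted signals 4 of 19 Wnt genes (21.1%, 6.05 to 45.6%), Wnt3 at 6.82, Wnt16 at 5.31, Wnt10b at 5.14 and Wnt7a at 3.79, and 3 of 22 Fgf genes (13.6%, 2.91 to 34.9%) were weak-only. The intervals of the Hox and Wnt genes lay above 5.37% and those of the other lists in this paragraph included it.

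Tissue genes were mostly without any region. Of 20 neuronal genes 3 were weak-only, the sodium channel gene Scn1a at 7.30, Gad2, which makes GABA, at 6.82 and Grin1, a glutamate receptor subunit, at 5.05. The same held for 1 of 16 muscle genes, Tnnt3 at 2.48, 0 of 15 liver genes and 1 of 24 meiotic and germ line genes, Rec8, a meiotic cohesin, at 7.33. Families lay on both sides of 5.37%. Zfp zinc finger genes had 4.57% (18 of 394), solute carriers 5.39% (20 of 371), ribosomal protein genes 0.990% (1 of 101, Rpl13 at 5.92) and olfactory receptors 0.353% (4 of 1133). Tmem transmembrane protein genes had 7.85% (19 of 242), with an interval that holds 5.37%. Potassium channels had 9.57% (4.47 to 17.4%) and tripartite motif genes 10.3% (4.24 to 20.1%), and 10 of 100 Gpr and Adgr receptors were weak-only (4.90 to 17.6%). No weak-only gene was found among 18 housekeeping genes, all of which had a region of the IDR list, or among 67 replication-dependent histone genes, of which 63 had one.

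**Figure D5:**
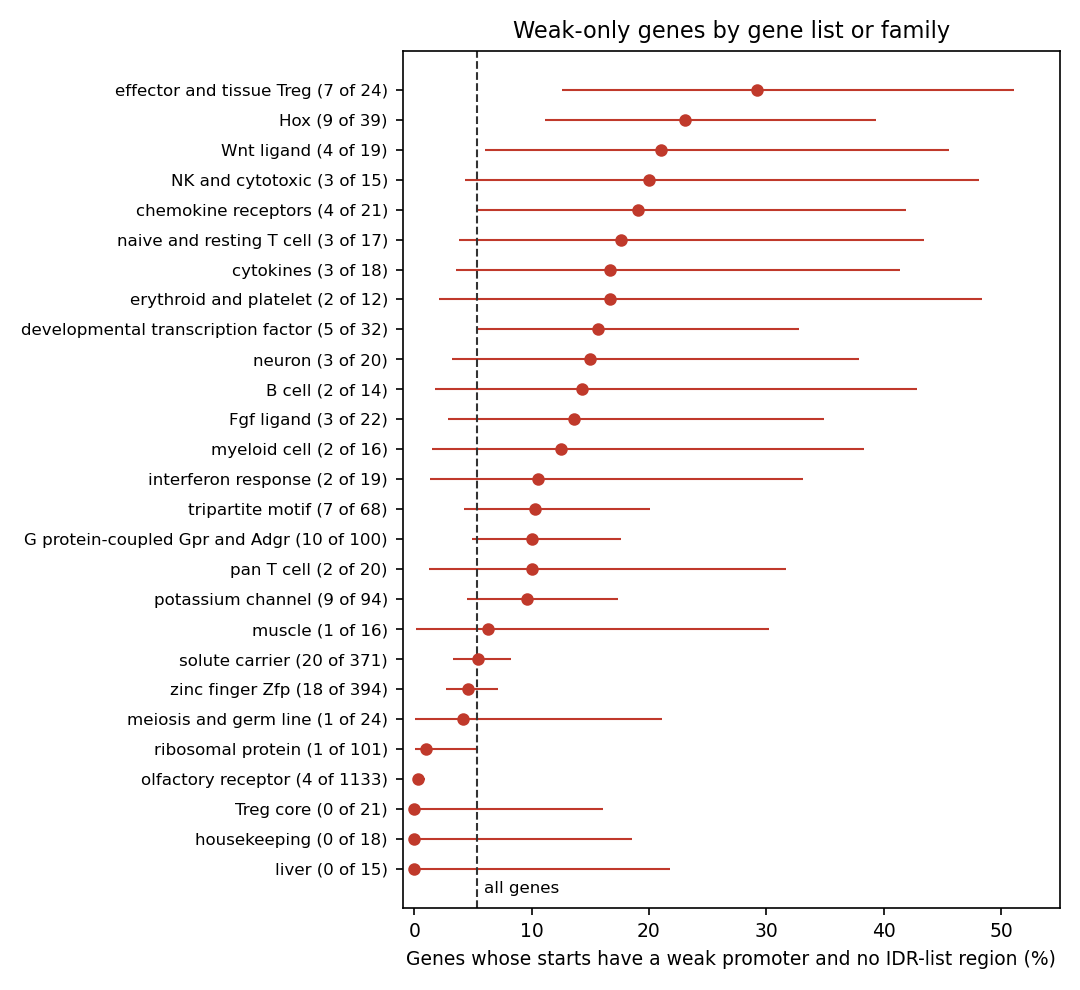
Share of weak-only genes (%, horizontal axis) in each gene list or family (vertical axis, with the count of weak-only genes of genes found), with exact 95% intervals as error bars and a dashed line at the share over all genes, 5.37%. Effector and tissue regulatory T cell genes (29.2%), Hox genes (23.1%) and Wnt genes (21.1%) lie to the right of the line, and core regulatory T cell, liver and housekeeping genes are at 0.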

How the data were processed

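The 2 libraries, technical replicates of 1 mouse, were used through 3 peak lists of the whole series; no list ties a value to a named library. Per the file headers and the text deposited with the samples, the lists are on mm10 and are pseudoreplicated, IDR-thresholded and IDR-ranked peaks; for the aligner, peak caller, filters, pooling and depth the sources used here give nothing. The deposited score of a peak is a whole number that, in the ranked list, falls with the IDR. The deposited fold is the authors' ratio of a peak over a background that is not stated. The deposited p-values are the authors' −log10 values. These peak values were used only to describe, rank and select regions.

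Rows were merged when they overlapped or touched, a shared base counted as overlap with the IDR list, and starts came from GENCODE M21. CpG content, repeats and motifs were read from the RefSeq copy of GRCm38, patch p6. Scripts ran in Python 3.11.15 with pandas 2.3.3, numpy 2.4.6, scipy 1.17.1 and matplotlib 3.10.9, and 12 of 12 checks on simulated data gave the known answers. Shares carry exact Clopper-Pearson 95% intervals. No test between groups was run, since there is 1 group and no value tied to a replicate. Named genes were the 10 alone and 10 other members of highest fold, the 5 lowest, those at the score limit, up to 4 weak-only genes per list by fold, the 5 with most members and the 5 with most distal regions; list genes of the IDR list that also had a weak region were added. Members, lists and motifs were chosen with earlier results of these data known. Some genes and sequences that these rules select are not reported here.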

Additional observations from a re-analysis of the deposited data

How the results depend on the processing

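Of 79 values of 8 results recomputed under other settings, 40 stayed within the 95% interval or, for the member count, within 1.5 times, and 39 moved. These values are of weak promoters and their genes alone. After seeing the data, 3 shares were also recomputed in promoter regions of the IDR list: the CpG rich share stayed lower in weak promoters under 12 of 12 alternatives and the share within 100 bp of a start under 9 of 9, without overlap of intervals, and for distal regions within reach the intervals overlapped under 11 of 11. The smallest gaps were 33.8% in weak promoters against 43.8% (CpG ratio 0.75) and 26.4% against 35.0% (rows not merged, within 100 bp). A window of 500 bp gave 2034 members, a weak share of promoter regions of 17.2%, 53.8% CpG rich, 45.6% within 100 bp of a start, 57.8% of nearest genes without an IDR-list region, 37.9% with an IDR-list region within 2 kb, a median of 2 distal regions and 4.93% of all genes weak-only. A window of 2000 bp gave 26.3%, 53.7%, 22.0%, 37.8%, 49.6% and, of all genes weak-only, 5.97%. Gene 5′ ends only gave a weak share of 19.6%, 61.9% CpG rich, 25.6% within 100 bp, 54.6% of nearest genes without an IDR-list region and a median of 2 distal regions, and basic transcripts only gave 21.4%, 60.8% CpG rich and 46.8% of nearest genes. Keeping members with a −log10 p of at least the median of 14.7 gave 1579 members, 12.8%, 53.8% CpG rich, 34.1% within 100 bp, a median of 2 distal regions and 3.12% of all genes. Without merging rows the values were 13.9%, 60.2% CpG rich, 26.4% within 100 bp, 44.1% with an IDR-list region within 2 kb and a median of 2. The CpG rich share was 61.2% over 500 bp, 33.8% with a ratio of 0.75 and a GC content of 55%, and 43.4% around the summit. An IDR-list region lay within 1 kb in 42.5% and within 5 kb in 55.6%, and the median of distal regions within 100 kb was 3. Taking the summit from the −log10 p, cutting the ranked list at an IDR of 0.05 or asking for an overlap of at least 50% moved none of the 8. Each of these settings gave 3131 members and hardly altered any value, and their values are among the 40 that stayed. They are also among the 12, 9 and 11 alternatives above, to which they add almost nothing. Motif shares moved in 32 of 63 alternatives. Within 100 bp of the summit CCAAT was found in 17.4% of weak promoters and 33.9% of promoter regions in the IDR list, and around the start CCAAT was found in 9.04% and 16.2%, the GC box in 36.1% and 44.1% and ETS in 3.64% and 12.5%. The cause of these shifts was not tested. No paired analysis was possible because the lists tie no value to a named library, and for the same reason no library could be left out. Depth is unknown, so no limit of detection can be given.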
